A study of Arabidopsis thaliana with 12 samples.

Results

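Stress + Pakerine was compared with DMSO across all 21882 genes of the expression table, using 6 of the 12 RNA-seq libraries of the study, 3 per group. Every library was made from leaf material of *Arabidopsis thaliana* seedlings carrying the *cat2-2* mutation in *CATALASE2*, so the mutation is shared by both groups and there is no wild type among them. In the DMSO group, seedlings grew for 7 days in liquid medium under 16 h of light per day, were moved to medium with the solvent DMSO and were harvested 4 days later, at day 11. In the Stress + Pakerine group, the fresh medium held 10 µM pakerine, an m-sulfamoyl benzamide, and after the same 4 days the plates were sealed and kept for 2 days under 24 h of light, so that these seedlings were harvested at day 13. Pakerine, sealing, day length and 2 days of age therefore changed together and cannot be told apart in this comparison. The plants were grown 5 to a well in 96-well plates and each replicate was a pool of 100 mg of leaf material, so a library describes many seedlings rather than a single plant.

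Photorespiration starts when Rubisco takes up oxygen in place of CO2. The peroxisomal oxidation of the resulting glycolate releases H2O2, which catalase removes, and a sealed vessel in the light draws down CO2 and drives the pathway. In catalase-deficient leaves H2O2 builds up under these conditions, and it acts both as a damaging oxidant and as a signal connected with salicylic acid (SA), a defence hormone, and with the induction of detoxification enzymes. Peroxisomes also hold the β-oxidation enzymes, among them AIM1 and MFP2, which shorten fatty acids and precursors of jasmonic acid (JA) and auxin.

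The table gives the mean CPM of each group, read counts scaled to a common library total,, and no values of single libraries. Because each mean is the average of 3 whole read counts divided by 3 library totals, the totals and, for many genes, the reads of each library could be worked back exactly. The totals of the 6 libraries were 28472236 to 32644275 counted reads. The libraries of a group are called A, B and C by falling total, and these letters pair nothing between groups. Values of all 6 libraries were recovered for 12797 genes, and these were tested with limma on log2(CPM + 0.5). The other 9085 genes were not tested, 5113 of them because a group mean reached 50 CPM, and for these the authors' means are given, with a 95% interval for the main ratios that covers counting error only. Over 7850 genes each library was closer to its own group (root mean square log2 distance of 0.251 to 0.346 over all 12 libraries) than to the nearest library of another group (0.420 to 0.537). Values from 10 to 50 CPM were kept only where all libraries lay within 50% of their own group mean. This limits the distances within groups in advance, so they are no independent check of the groups.

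*CAT2* itself, the gene that carries the mutation, was read at 18.8, 25.2 and 14.5 CPM in the DMSO libraries and had a mean of 108 CPM in Stress + Pakerine, 5.54-fold higher (95% counting interval 5.23 to 5.79). Its mean was 76.1 CPM in Stress and 37.2 CPM in Pakerine, the groups given the stress or the compound alone. For the 6 libraries of these groups the title and the treatment stated in the labels differ, so their means are named here by the headings of the table. The table does not show which part of the gene the reads came from, and without a wild type these levels do not measure the loss of *CAT2* function. The labelled tissue was checked by its markers. The 16 leaf and mesophyll genes, such as Rubisco small subunits and Rubisco activase, summed to 32467 CPM in DMSO and 35443 CPM in Stress + Pakerine. The 28 root cell markers in the table were all above 0 and summed to 175 and 322 CPM. Such sums cannot tell a larger share of a cell type from more RNA per cell.

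More genes were higher in Stress + Pakerine than lower. By the group means (pseudocount 0.1 CPM), 1999 genes, or 9.14%, were more than 2-fold higher and 408, or 1.86%, more than 2-fold lower. Among the 12797 genes tested, 889 rose (6.95%) and 144 fell (1.13%) at a limma adjusted p of at most 0.01 and a difference of at least 2-fold, and the 3 libraries of each group did not overlap for any of these 1033 genes. Libraries did not overlap for 52.6% of all genes tested. The count of genes that fell depended on single libraries of Stress + Pakerine: it was 94 without library A and 217 without library B. The 3 genes just inside the limit of the means were *MYB59* (25.5 to 51.2 CPM), *KDR* (5.31 to 10.7 CPM) and *FER1* (428 to 856 CPM) on the higher side, with *EIR1* (5.14 to 10.4 CPM), AT1G64530 (13 to 26 CPM) and *NHL3* (67.2 to 134 CPM) just outside. On the lower side AT4G14270 (91.7 to 45.8 CPM), AT5G44260 (47.1 to 23.48 CPM) and *CYCD3;2* (72.0 to 35.9 CPM) lay just inside, and *BT2* (984 to 493 CPM), AT5G55520 (14.2 to 7.07 CPM) and AT2G26330 (119 to 59.4 CPM) just outside.

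**Figure D1:**
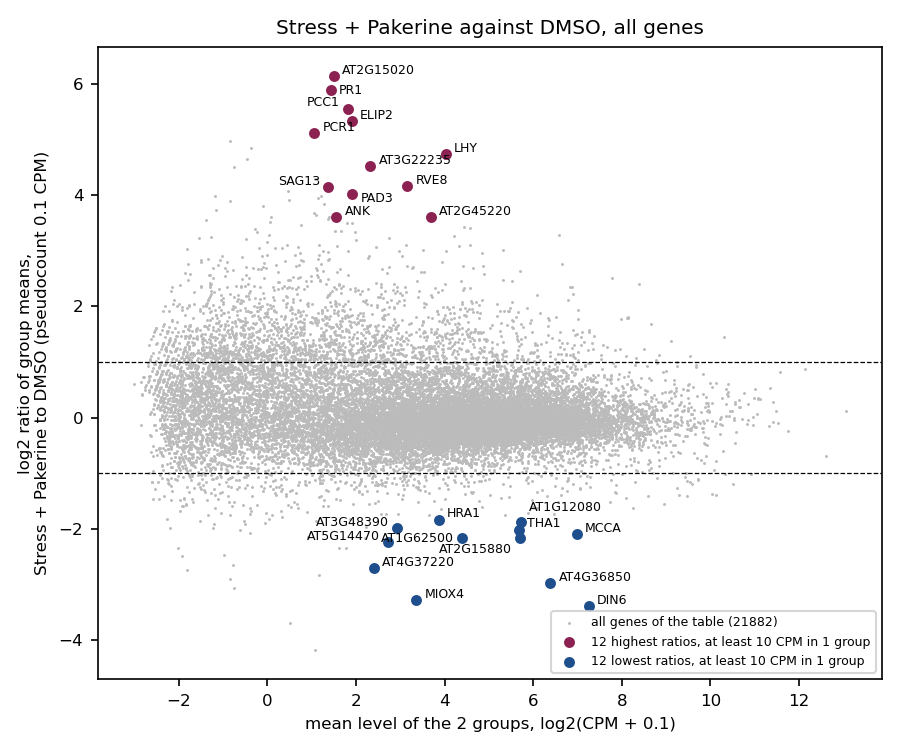
Each point is 1 of the 21882 genes, with the mean level of the 2 groups as log2(CPM + 0.1) on the horizontal axis and the log2 ratio of the group means on the vertical axis. The dashed lines mark 2-fold, and the 12 highest and 12 lowest ratios among genes with at least 10 CPM in a group are coloured and named, from AT2G15020 at the top to *DIN6* at the bottom.

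The highest ratio among genes with at least 10 CPM in a group belonged to AT2G15020, a gene with no named function here. Its levels were 0.164, 0.295 and 0.246 CPM in DMSO and 30.2, 14.9 and 25.8 CPM in Stress + Pakerine, a difference of 4.98 in the fitted log2(CPM + 0.5) (SE 0.21, limma adjusted p = 7.9e-09). *PR1*, the pathogenesis-related protein used as a standard SA marker, came next: it was read at 0.0655, 0.262 and 0.421 CPM in DMSO against a mean of 20.7 CPM, 82.9-fold higher (counting interval 55.3 to 134), and was not tested. *PCC1*, a gene controlled by both pathogens and the circadian clock, had 0.197, 0.558 and 0.492 CPM in DMSO and 28.2, 14.9 and 29.5 CPM in Stress + Pakerine (log2 difference 4.71, SE 0.30, limma adjusted p = 2.6e-07). In AT2G15020, *PCC1* and *ELIP2*, library B of Stress + Pakerine had the lowest level of its group and still lay far above every DMSO library.

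*ELIP2* encodes an early light-induced protein that binds pigments under excess light. It rose from 0.426, 0.656 and 0.386 CPM to 31.0, 13.9 and 26.1 CPM (log2 difference 4.55, SE 0.28, limma adjusted p = 7.9e-07). *PCR1*, a plasma membrane protein of the plant cadmium resistance family, rose from 0.0655, 0.525 and 0.176 CPM to 16.3, 12.2 and 8.05 CPM (4.06, SE 0.26, limma adjusted p = 3.2e-07). *SAG13*, a short-chain alcohol dehydrogenase used as an early senescence marker, rose from 0.328, 0.492 and 0.738 CPM to 7.69, 14.3 and 10.5 CPM (3.45, SE 0.23, limma adjusted p = 4.9e-08). The ankyrin repeat gene *ANK* rose from a mean of 0.742 CPM to 10.15 CPM (3.14, SE 0.23, limma adjusted p = 2.2e-07). The morning clock genes *LHY* (3.06 to 84.4 CPM, 27.6-fold, interval 24.3 to 31.0) and *RVE8* (2.00 to 37.7 CPM, 18.9-fold, interval 16.2 to 22.0), the camalexin enzyme *PAD3* (0.833 to 15.1 CPM) and the pectin methylesterase gene AT2G45220 (3.59 to 45.0 CPM) completed the 12 together with AT3G22235, and were not tested.

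AT3G22235 lies close to *PCC1* and resembles it. It had 0.590, 0.820 and 1.44 CPM in DMSO and 23.59, 18.5 and 29.7 CPM in Stress + Pakerine (4.09, SE 0.26, limma adjusted p = 9.3e-07). Of the 75-base windows in its exons, 77.7% also occur elsewhere in the genome, as do 25.2% of those of *PCC1*, so the reads of these neighbours may have been shared between them and their separate levels are uncertain. The sequence in front of both genes is shown because it is repeated too: the 250 bases before each annotated start (RefSeq, build TAIR10.1, 5′ to 3′ on the gene's strand) share a run of 105 identical bases. Capitals mark TGACG, the core bound by TGA factors, partners of the SA receptor NPR1, in either orientation. *LHY* is shown beside them with its G-box (CACGTG) in capitals.
PCC1 (chr3:7846834-7847083, minus strand): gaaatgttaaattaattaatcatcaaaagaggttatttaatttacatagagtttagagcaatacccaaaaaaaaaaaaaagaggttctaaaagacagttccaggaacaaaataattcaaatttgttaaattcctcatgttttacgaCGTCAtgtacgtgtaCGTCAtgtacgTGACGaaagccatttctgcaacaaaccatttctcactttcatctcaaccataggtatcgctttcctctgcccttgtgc
AT3G22235 (chr3:7855815-7856064, minus strand): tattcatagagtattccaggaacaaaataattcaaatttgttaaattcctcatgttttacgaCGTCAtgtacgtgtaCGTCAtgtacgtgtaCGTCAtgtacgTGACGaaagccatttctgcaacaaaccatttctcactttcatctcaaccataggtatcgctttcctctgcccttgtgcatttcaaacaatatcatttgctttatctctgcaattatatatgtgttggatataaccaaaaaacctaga
LHY (chr1:37872-38121, minus strand): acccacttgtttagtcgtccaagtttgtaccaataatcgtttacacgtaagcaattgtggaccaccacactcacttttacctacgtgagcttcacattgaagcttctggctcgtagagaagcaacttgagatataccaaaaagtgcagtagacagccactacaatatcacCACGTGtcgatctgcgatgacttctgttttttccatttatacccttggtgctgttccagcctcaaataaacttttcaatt

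The matches begin 104, 89 and 78 bases before the start of *PCC1*, 188, 173, 158 and 147 bases before that of AT3G22235, and 80 bases before that of *LHY*. TGACG occurred in 19.2% of the 21728 windows of this length, in 22.1% of those of genes more than 2-fold higher and in 3 of the 12 highest. These 3 were AT2G45220, *PCC1* and AT3G22235, and the last 2 share the repeated run, so they are not separate cases. CACGTG occurred in 7.12% of all windows. The W-box (TTGACC or TTGACT), which WRKY factors bind, was present in 28.3% of all windows, in 38.1% of those of genes more than 2-fold higher and in 24.1% of those more than 2-fold lower. It was present in 2 of the 12 highest and 4 of the 12 lowest ratios, and in 5 of 20 SA response genes (25%). The windows of AT2G15020, *PR1*, *ELIP2*, *PCR1*, *RVE8*, *SAG13* and *PAD3* held neither TGACG nor CACGTG nor a W-box. All of these are matches of letters on both strands and were not tested.

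The lowest ratio among genes with at least 10 CPM in a group belonged to *DIN6*, a glutamine-dependent asparagine synthetase induced by darkness and sugar starvation. Its mean was 493 CPM in DMSO, and the Stress + Pakerine libraries had 59.1, 54.9 and 26.7 CPM, 10.5-fold lower as means (ratio 0.0950, interval 0.0935 to 0.0994). *MIOX4*, a myo-inositol oxygenase, had a mean of 31.9 CPM in DMSO against 1.87, 5.41 and 2.37 CPM, 9.92-fold lower (ratio 0.101, interval 0.0899 to 0.114). AT4G36850, a PQ-loop transporter-like gene, had means of 235 and 29.8 CPM, 7.89-fold lower (ratio 0.127, interval 0.122 to 0.132). None of these 3 was tested, since a group was not recovered library by library.

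Of the 12 lowest, 4 could be tested and 3 fell. AT4G37220, a member of the cold acclimation WCOR413 family, fell from 13.1, 11 and 16.3 CPM to 2.05, 1.84 and 2.03 CPM (log2 difference -2.48, SE 0.16, limma adjusted p = 3e-08). AT5G14470, a GHMP kinase gene, fell from 14.9, 15.2 and 13.0 CPM to 2.27, 4.2 and 2.44 CPM (-2.14, SE 0.32, limma adjusted p = 0.00036), and AT3G48390, an MA3 domain gene, from 14.5, 12.1 and 18.3 CPM to 2.48, 5.29 and 3.38 CPM (-1.91, SE 0.28, limma adjusted p = 0.00029). *HRA1*, a trihelix factor of the low-oxygen response, had 25.4, 19.5 and 37.3 CPM in DMSO and 5.76, 12.6 and 4.57 CPM in Stress + Pakerine, and with an adjusted p of 0.018 (limma) it missed the threshold. The others were *MCCA* (261 to 61.4 CPM), *THA1* (103 to 25.4 CPM), AT2G15880 (110 to 24.5 CPM), AT1G62500 (44.3 to 9.87 CPM) and AT1G12080 (101 to 27.4 CPM), by their means.

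In absolute level, the largest gains were in *RCA*, Rubisco activase, whose mean was 3320 CPM in DMSO and 6100.4 CPM in Stress + Pakerine, in the glycine-rich protein gene *GRP3S* (2302 to 4077 CPM) and in *GLDP1*, the P-protein of the photorespiratory glycine decarboxylase (765 to 2082 CPM). The largest losses were in the antenna gene *LHCB1.3* (7953 to 4952 CPM), the clock-controlled RNA-binding protein gene *CCR2* (2773 to 1372 CPM) and *DIN10*, a raffinose synthase-like gene induced in the dark (2204 to 963 CPM).

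**Figure D2:**
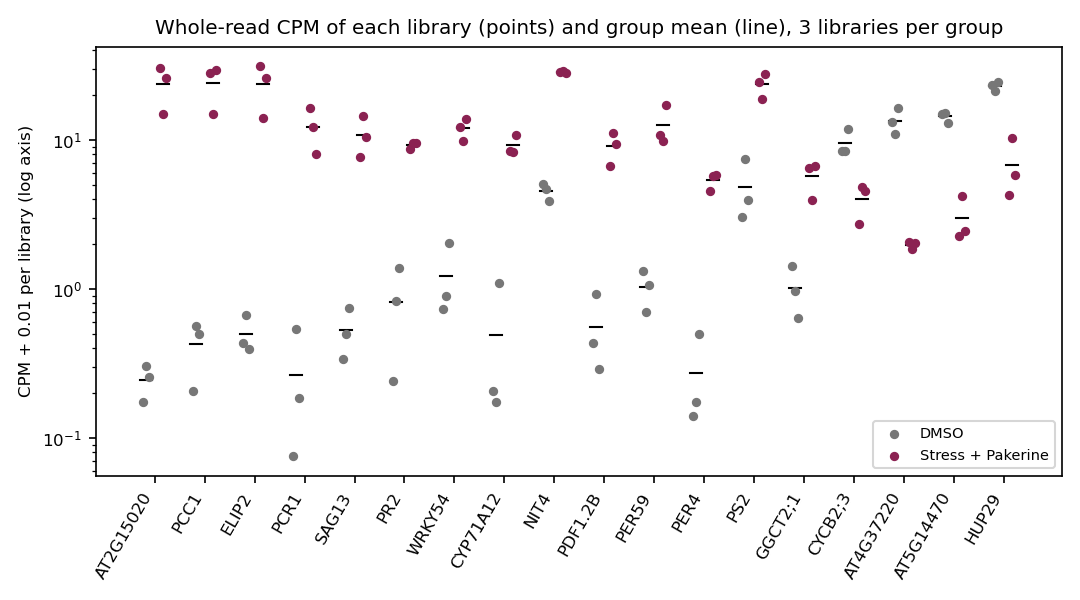
Points are the CPM of single libraries (log axis, with 0.01 CPM added), 3 per group, and short lines the group means, for 18 of the genes with reads recovered in all 6 libraries. The 18 were picked from genes that passed, so that the lack of overlap between DMSO and Stress + Pakerine libraries follows from the choice. Libraries did not overlap for 52.6% of all genes tested. The 3 Stress + Pakerine libraries of *NIT4* nearly coincide (28.1 to 28.9 CPM).

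The genes were then grouped by 37 lists of known pathways and cell markers, 704 of whose members were in the table and 337 tested. Of these lists, 10 had a median log2 ratio of at least 1 by the means, whereas the median over all genes was -0.02. None of the counts below was tested as a set, and they are read beside the shares over all genes given above. List members named beyond the rule given with the methods were chosen after their values were seen.

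**Figure D3:**
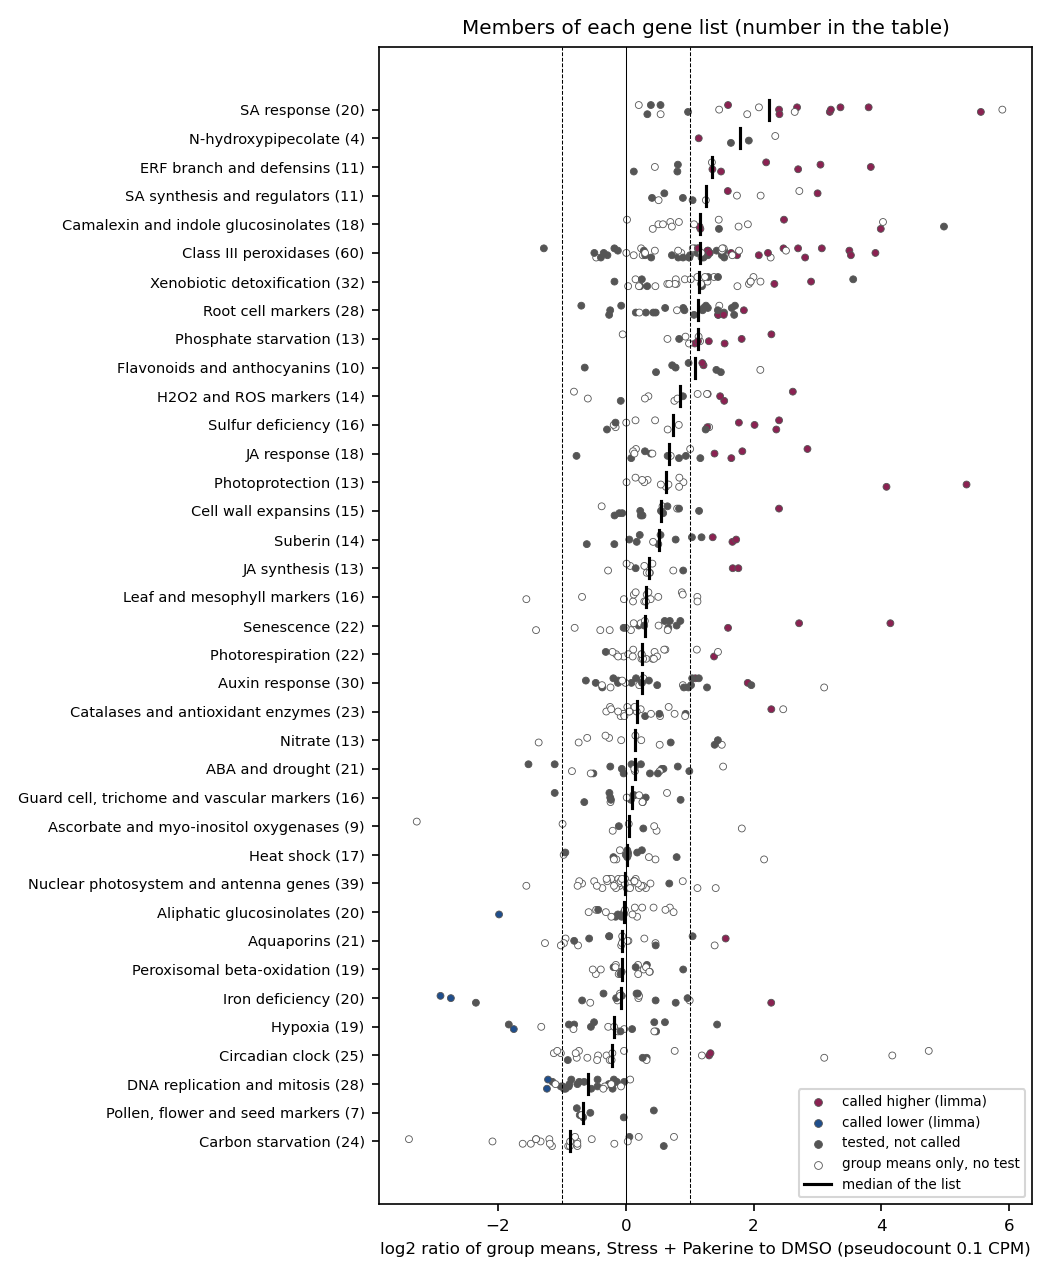
Each point is a member of a list, placed by the log2 ratio of its group means on the horizontal axis, with the number of members in the table in brackets, and each short bar is the median of its list. The dashed lines mark 2-fold, filled points were tested with limma and open points rest on group means only; SA response is at the top with a median of 2.24 and carbon starvation at the bottom with -0.87.

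SA genes formed the group with the highest median. Of 20 SA response genes, 14 were more than 2-fold higher and none lower (median log2 ratio 2.24), and 9 of the 13 tested rose. Summed over these 13 genes, the DMSO libraries had 51.7, 51.6 and 52.0 CPM and the Stress + Pakerine libraries 140, 148 and 158 CPM. Such sums hide the spread of single members, and members not recovered in all 6 libraries, such as *PR1*, are left out of them. *PR2*, a β-1,3-glucanase, rose from 0.229, 0.820 and 1.37 CPM to 8.61, 9.49 and 9.54 CPM (log2 difference 3.00, SE 0.30, limma adjusted p = 8.5e-06), and *WRKY38*, a transcription factor of basal defence, from 0.0655, 0.0656 and 0.316 CPM to 3.92, 2.61 and 3.59 CPM (2.58, SE 0.22, limma adjusted p = 4.4e-07). *WRKY54* (2.92, SE 0.23, limma adjusted p = 4.4e-07), *WRKY46* (2.31, SE 0.24, limma adjusted p = 8.4e-06) and *NIMIN2*, a partner of NPR1 (2.4, SE 0.26, limma adjusted p = 8.4e-06), rose as well. The SA receptor gene *NPR1* itself had means of 41.3 and 47.6 CPM.

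Of 11 genes of SA synthesis and its regulators, 7 were more than 2-fold higher, and 2 of 6 tested rose. *ICS1*, isochorismate synthase, which opens the main SA pathway, had 8, 10.11 and 16.4 CPM in DMSO and 38.7, 33.3 and 33.2 CPM in Stress + Pakerine (1.62, SE 0.28, limma adjusted p = 0.0014). *PBS3*, which conjugates isochorismate to glutamate, rose from 0.918, 2.1 and 4.99 CPM to 26.3, 19.4 and 20.6 CPM (3.04, SE 0.45, limma adjusted p = 0.0013), and its DMSO libraries differed more among themselves than those of Stress + Pakerine. The isochorismate exporter *EDS5* (3.99 to 17.57 CPM), the regulator *SARD1* (3.72 to 25.0 CPM) and *PAD4* (9.06 to 30.5 CPM) had higher means and were not tested.

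All 4 genes of N-hydroxypipecolate, the mobile signal of systemic resistance, had means more than 2-fold higher. *SARD4* rose from 15.1, 15.6 and 18.23 CPM to 42.5, 26.5 and 39.2 CPM (1.1, SE 0.18, limma adjusted p = 0.001). *FMO1*, the enzyme that makes the compound, had 0.0983, 0.295 and 1.02 CPM in DMSO and 3.61, 1.31 and 1.29 CPM in Stress + Pakerine and missed the threshold (1.4, SE 0.43, limma adjusted p = 0.022). The glucosyltransferase gene *UGT76B1* had means of 10.5 and 53.4 CPM.

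Of 18 genes of camalexin and indole glucosinolates, the tryptophan-derived defence compounds, 11 were more than 2-fold higher and none lower, and 4 of 6 tested rose. *CYP71A12*, a cytochrome P450 of indole metabolism, rose from 0.197, 0.164 and 1.09 CPM to 8.39, 8.31 and 10.8 CPM (3.41, SE 0.29, limma adjusted p = 1.1e-06). Its relative *CYP71A13*, which makes the camalexin precursor, had no read in any DMSO library and 0.551, 7.44 and 1.18 CPM in Stress + Pakerine. Its mean was at least 91.2-fold higher than 3 reads over the DMSO group would give, yet library B alone carried most of it and the gene missed the threshold (limma adjusted p = 0.011). *CYP79B2* (22.3 to 84.0 CPM) and *CYP83B1* (137 to 466 CPM), earlier steps from tryptophan, had higher means, and *IGMT2*, an indole glucosinolate methyltransferase with 29.4% of its exon windows found elsewhere, rose by 1.91 on the log2 scale (SE 0.24, limma adjusted p = 1.8e-05).

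Xenobiotic detoxification genes, mainly glutathione transferases (GSTs) and glucosyltransferases, were more than 2-fold higher in 18 of 32 cases and lower in none (median log2 ratio 1.15), but only 10 could be tested, of which 2 rose. *GSTU11* rose from 0.459, 0.230 and 0.702 CPM to 2.88, 3.2 and 2.1 CPM (1.76, SE 0.23, limma adjusted p = 2.4e-05) and *GSTU12* from 0.0328, 0.0328 and 0.176 CPM to 0.827, 1.49 and 1.42 CPM (1.58, SE 0.21, limma adjusted p = 2.4e-05). Among abundant members known by their means, *GSTF7* went from 53.0 to 229 CPM, *GSTF2* from 343 to 894 CPM and *OPR1* from 235 to 555 CPM. *GSTU3*, with a single read in DMSO, had 0.184, 2.89 and 0.575 CPM in Stress + Pakerine and missed the threshold (limma adjusted p = 0.025).

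Markers of H2O2 and of other reactive oxygen species were more than 2-fold higher in 6 of 14 cases, and 4 of 6 tested rose. *NIT4*, a nitrilase of β-cyanoalanine, was the clearest, with 5.08, 4.69 and 3.90 CPM in DMSO and 28.3, 28.9 and 28.1 CPM in Stress + Pakerine (2.52, SE 0.10, limma adjusted p = 5.1e-09). *OXI1*, a kinase activated by H2O2, rose from 1.57, 0.984 and 1.37 CPM to 4.59, 3.86 and 3.55 CPM (1.32, SE 0.16, limma adjusted p = 1.1e-05), and *BCS1*, a mitochondrial AAA-ATPase, from a mean of 8.24 to 20.2 CPM (1.25, SE 0.11, limma adjusted p = 1.5e-06). Of 23 antioxidant enzymes, 2 (8.70%) were more than 2-fold higher and none lower, near the shares over all genes (9.14% and 1.86%). Their median log2 ratio was 0.17. Beside *CAT2* the higher one was *MDAR3*, a monodehydroascorbate reductase, which rose from 2.92, 1.21 and 5.97 CPM to 15.2, 15.2 and 19.8 CPM (2.35, SE 0.42, limma adjusted p = 0.0016). The other catalases had means of 95 and 98.8 CPM (*CAT1*) and 3769 and 3181 CPM (*CAT3*), and *APX1*, cytosolic ascorbate peroxidase, 2164 and 3141 CPM.

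Photorespiratory genes had a median log2 ratio of 0.26, with 3 of 22 (13.6%) more than 2-fold higher and none lower. Over all genes 9.14% were higher. *GLDP1* and *GLDP2*, both encoding the P-protein of glycine decarboxylase, had means 2.72-fold (2.69 to 2.74) and 2.16-fold (2.14 to 2.19) higher. *BASS6*, a plastid glycolate transporter, rose from 2.95, 2.53 and 2.39 CPM to 7.14, 6.44 and 7.41 CPM (1.27, SE 0.12, limma adjusted p = 1.5e-06). Glycolate oxidase *GOX1*, which makes the H2O2, had means of 823 and 1265 CPM. None of the 19 genes of peroxisomal β-oxidation was past 2-fold in either direction. *AIM1* had means of 248 CPM in DMSO and 223 CPM in Stress + Pakerine, a ratio of 0.899 (0.881 to 0.915), and *MFP2*, the other multifunctional protein, 135 and 154 CPM, a ratio of 1.14 (1.11 to 1.17).

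The branch of defence that ethylene and JA share was also higher. Of 11 genes, 7 were more than 2-fold higher and none lower (median log2 ratio 1.36), and 6 of 9 tested rose. The plant defensin gene *PDF1.2A* had 0.623, 0.951 and 0.667 CPM in DMSO and 4.17, 6 and 6.02 CPM in Stress + Pakerine (2.23, SE 0.19, limma adjusted p = 4.7e-07), and *PDF1.2B* rose from 0.426, 0.919 and 0.281 CPM to 6.68, 11.1 and 9.37 CPM (3.22, SE 0.22, limma adjusted p = 4.9e-08). *PDF1.2C* (2.22, SE 0.31, limma adjusted p = 9.9e-05) and *PDF1.3* (1.90, SE 0.24, limma adjusted p = 1.8e-05) rose with them. Of 18 JA response genes 6 were more than 2-fold higher and 4 of 12 tested rose. They included *TAT3*, a tyrosine aminotransferase, which rose from 0.229, 0.295 and 1.65 CPM to 6.80, 6.38 and 4.3 CPM (2.53, SE 0.38, limma adjusted p = 0.00029), and *JAZ1*, a JA repressor, from 16.3, 14.8 and 19.5 CPM to 45.9, 42.9 and 44.6 CPM (1.38, SE 0.10, limma adjusted p = 3.2e-07). In JA synthesis 2 of 4 tested genes rose, the lipoxygenase gene *LOX4* (1.64, SE 0.23, limma adjusted p = 8.3e-05) and *AOC3*, allene oxide cyclase (1.56, SE 0.19, limma adjusted p = 1.3e-05).

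Class III peroxidases, secreted haem enzymes that build or loosen the cell wall, formed the list with the most members. Of these 60, 36 were more than 2-fold higher and 1 lower (median log2 ratio 1.16, or 0.79 with a pseudocount of 1 CPM), and 15 of 41 tested rose. Over the 41 tested members the DMSO libraries summed to 166, 135 and 164 CPM and the Stress + Pakerine libraries to 315, 289 and 393 CPM. These sums leave out the abundant members, which were not recovered. The means of all 60 summed to 1496 CPM in DMSO and 2638 CPM in Stress + Pakerine. *PER59* rose from 1.31, 0.689 and 1.05 CPM to 10.8, 9.77 and 17.1 CPM (3.08, SE 0.27, limma adjusted p = 1.9e-06), with means of only 2.21 CPM in Stress and 1.81 CPM in Pakerine. *PER10* rose from 1.15, 1.41 and 1.05 CPM to 3.61, 5.79 and 6.87 CPM (1.76, SE 0.25, limma adjusted p = 7.9e-05) and had means of 0.992 CPM in Stress and 0.785 CPM in Pakerine. *PER4* rose from 0.131, 0.164 and 0.492 CPM to 4.50, 5.72 and 5.79 CPM (2.96, SE 0.21, limma adjusted p = 1.1e-07). *PRX52*, an enzyme of lignification, rose by 2.48 on the log2 scale (SE 0.29, limma adjusted p = 1.8e-05) and AT2G38390 by 2.85 (SE 0.19, limma adjusted p = 1.1e-07). The most abundant members past 2-fold were AT5G64120, with means of 92.6 and 527 CPM, and *PRXCB*, with 69.8 and 239 CPM. The member past 2-fold in the other direction, AT2G24800, had 2.00, 2.23 and 1.37 CPM in DMSO and 0.551, 0.933 and 0.643 CPM in Stress + Pakerine and did not reach a 2-fold difference in the test (-0.96, SE 0.18, limma adjusted p = 0.00061).

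Root cell markers were also higher by the group means. Of 28 in the table, 15 were more than 2-fold higher and none lower (median log2 ratio 1.14, or 0.61 with a pseudocount of 1 CPM), but only 3 of 25 tested passed the threshold, the root hair genes *RHD6*, *RSL4* and *LRX2*. At an adjusted p of at most 0.05 with no minimum fold (limma), 16 of the 25 were higher, against 24.6% of all genes tested. Summed over the 25, the DMSO libraries had 101, 59.3 and 105 CPM and the Stress + Pakerine libraries 199, 137 and 226 CPM, and library B was the lowest in both groups. *RHD6* rose from 0.524, 0.0984 and 0.351 CPM to 1.07, 1.12 and 2.1 CPM (1.22, SE 0.24, limma adjusted p = 0.00071). *PRP1*, a root hair cell wall protein, had 11.2, 4.36 and 12.7 CPM in DMSO and 31.1, 20.0 and 41.2 CPM in Stress + Pakerine and missed the threshold (1.72, SE 0.52, limma adjusted p = 0.035). The summed means of all 28 markers were 175 CPM in DMSO, 322 CPM in Stress + Pakerine, 152 CPM in Stress and 360 CPM in Pakerine. Whether root tissue in the samples has a part in the peroxidase, auxin and suberin values was not tested.

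**Figure D4:**
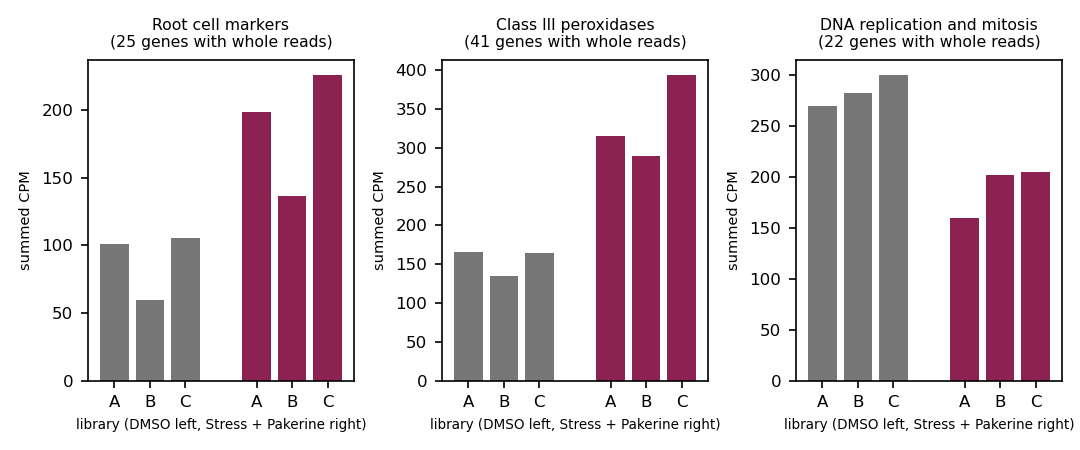
Bars are the summed CPM of the members recovered in all 6 libraries, by library (A, B and C of DMSO on the left in grey, of Stress + Pakerine on the right in red), for root cell markers, class III peroxidases, and DNA replication and mitosis. The Stress + Pakerine libraries lie above every DMSO library for the first 2 lists (137 to 226 against 59.3 to 105 CPM for root markers) and below every one for the third (160 to 204 against 270 to 300 CPM).

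Of 30 auxin response genes 8 were more than 2-fold higher and none lower, but the median log2 ratio was 0.26, and 2 of 21 tested rose. *AIR1*, a lipid-transfer-like protein gene induced by auxin in root cultures, had 13.8, 4.3 and 6.01 CPM in DMSO and a mean of 69.8 CPM in Stress + Pakerine, 8.70-fold higher (7.99 to 9.34), with 89.3 CPM in Pakerine and 5.70 CPM in Stress. *GH3.3*, which conjugates auxin to amino acids, rose from 6.85, 5.54 and 9.20 CPM to 23.8, 30.1 and 28.0 CPM (1.87, SE 0.19, limma adjusted p = 3.1e-05), and the repressor *IAA17* from 19.3, 14.3 and 17 CPM to 36.1, 33.4 and 38.3 CPM (1.08, SE 0.12, limma adjusted p = 1.4e-05). In the suberin list 5 of 14 were more than 2-fold higher and 3 of 13 tested rose, the fatty acyl reductases *FAR5* (1.44, SE 0.24, limma adjusted p = 0.00021) and *FAR4* (1.29, SE 0.21, limma adjusted p = 0.00015) and the hydroxylase *CYP86A1* (1.22, SE 0.27, limma adjusted p = 0.0027).

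Light and clock genes split within their lists. Beside *ELIP2*, *ELIP1* rose from 0.295, 0.164 and 0.246 CPM to 5.58, 4.26 and 6.87 CPM (3.03, SE 0.19, limma adjusted p = 2.9e-08), and these were the only 2 of 13 photoprotection genes past 2-fold. Of 25 clock genes 6 were more than 2-fold higher and 3 lower. The higher ones were genes of the morning phase: *LHY*, *RVE8* and *CCA1* (2.89 to 25.6 CPM) by their means, *RVE1* (1.3, SE 0.27, limma adjusted p = 0.0038), *PRR9* (1.12, SE 0.17, limma adjusted p = 0.0001; 41.2% of its exon windows are found elsewhere) and *LNK2* (27.8 to 63.5 CPM). The lower ones, by their means, were *CCR2*, *PRR3* (62.3 to 29.6 CPM) and *LUX* (85.0 to 38.9 CPM), which peak later in the day. Against the same DMSO libraries, 6 of the 25 were more than 2-fold higher and none lower in Stress. In Pakerine, which had the day length of DMSO, 6 were lower and none higher. The hour of harvest is not given in the sources used here, and Stress + Pakerine and DMSO differed in day length. The nuclear photosystem and antenna genes had a median log2 ratio near 0 (-0.02, or 0.04 when centred on the median gene), with 2 of 39 higher and 1 lower. The antenna genes *LHCB1.1* (126 to 274 CPM) and *LHCB1.2* (857 to 292 CPM) lay on opposite sides, but 10.4% and 3.7% of their exon windows occur elsewhere, so their reads may have been shared.

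Carbon starvation genes were lower, by their means. Of 24, 10 were more than 2-fold lower and none higher (median log2 ratio -0.87), and only 2 could be tested, neither of which passed. After *DIN6* came *MCCA*, a subunit of methylcrotonyl-CoA carboxylase in leucine breakdown (4.25-fold lower, 261 to 61.4 CPM), *DIN3*, a branched-chain keto acid dehydrogenase subunit (3.06-fold lower, 111 to 36.2 CPM), and *BCAT2*, a branched-chain aminotransferase (2.80-fold lower, 106 to 37.8 CPM). *SEN1*, a marker of dark-induced senescence, had means of 624 and 236 CPM. Of the 22 genes of the senescence list 3 (13.6%) were more than 2-fold higher, 1 (4.55%) lower and 18 within 2-fold (median log2 ratio 0.29). The shares over all genes were 9.14% higher and 1.86% lower. Of the 11 senescence genes tested 3 rose, *SAG13*, *JUB1* and *WRKY53*.

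DNA replication and mitosis genes were lower too. Of 28, 5 were more than 2-fold lower and none higher (median log2 ratio -0.60), and 2 of 22 tested fell, the B-type cyclins *CYCB2;2*, from 6.98, 8.07 and 9.45 CPM to 2.39, 3.83 and 4.16 CPM (-1.15, SE 0.20, limma adjusted p = 0.00038), and *CYCB2;3*, from 8.42, 8.43 and 11.8 CPM to 2.70, 4.79 and 4.53 CPM (-1.18, SE 0.20, limma adjusted p = 0.00027). At an adjusted p of at most 0.05 with no minimum fold (limma), 15 of the 22 were lower and none higher, against 17.5% of all genes tested. Over the 22 the DMSO libraries summed to 270, 282 and 300 CPM and the Stress + Pakerine libraries to 160, 201 and 204 CPM. The means of all 28 summed to 609 and 454 CPM. The list's median log2 ratio to DMSO was -0.92 in Stress and -0.11 in Pakerine, from the same DMSO libraries.

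Of 13 phosphate starvation genes 8 were more than 2-fold higher and none lower, and 6 of 7 tested rose. *PS2*, a phosphatase, rose from 3.02, 7.45 and 3.93 CPM to 24.5, 18.9 and 27.6 CPM (2.26, SE 0.27, limma adjusted p = 0.00022), and *MGD3*, a galactolipid synthase, from 3.77, 10.7 and 5.09 CPM to 23.3, 19.9 and 26.3 CPM (1.87, SE 0.35, limma adjusted p = 0.004). In the sulfur deficiency list 7 of 16 were higher and 5 of 8 tested rose. *GGCT2;1*, which breaks down glutathione, rose from 1.41, 0.951 and 0.632 CPM to 6.49, 3.92 and 6.66 CPM (2.05, SE 0.22, limma adjusted p = 3.4e-06), beside *SDI1* (1.76, SE 0.21, limma adjusted p = 1.1e-05) and *LSU1* (1.61, SE 0.20, limma adjusted p = 1.5e-05). In the iron list 2 of 20 were higher and 3 lower, all 3 of them transcription factors of the iron deficiency response. *BHLH39* fell from 0.9504, 1.64 and 1.69 CPM to 0.184, 0.0622 and 0.0677 CPM (-1.65, SE 0.19, limma adjusted p = 6.1e-06) and *BHLH38* from a mean of 0.635 CPM to 1 read in 3 libraries (-1.11, SE 0.17, limma adjusted p = 8.9e-05), whereas *F6'H1*, of coumarin synthesis, rose by 1.99 on the log2 scale (SE 0.26, limma adjusted p = 4.8e-05). Among nitrate genes, nitrate reductase *NIA1* had means of 1695 and 659 CPM and the transport partner *NAR2.1* 10.7 and 30.4 CPM.

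Flavonoid genes were more than 2-fold higher in 5 of 10 cases and 2 of 9 tested rose, *FLS1*, flavonol synthase (1.14, SE 0.15, limma adjusted p = 2.2e-05), and *UGT78D2*, a flavonoid glucosyltransferase (1.17, SE 0.14, limma adjusted p = 5.4e-05). Chalcone synthase *CHS*, the first step, had means of 11.6 and 50.3 CPM. In the remaining lists members past 2-fold went both ways or were few. Of 21 aquaporins 3 were higher and 2 lower, and of 21 ABA and drought genes 1 was higher and 2 lower. Of 19 hypoxia genes 3 (15.8%) were lower and 1, *SUS4*, higher. Over all genes 9.14% were higher and 1.86% lower. The lower hypoxia genes included *HUP29*, which fell from 23.3, 21.1 and 24.6 CPM to 4.26, 10.2 and 5.79 CPM (-1.78, SE 0.25, limma adjusted p = 0.00058). In the aliphatic glucosinolate list the regulator *MYB76* alone passed the threshold and fell (-1.01, SE 0.16, limma adjusted p = 0.00018). Of 17 heat shock genes only the endoplasmic reticulum chaperone *BIP3* was past 2-fold, with means of 2.55 and 11.8 CPM. The vacuolar water channel *TIP2;1* had means of 942 and 392 CPM, while *TIP4;1* rose by 1.43 on the log2 scale (SE 0.20, limma adjusted p = 5.4e-05). Of 16 pollen, flower and seed markers 7 were in the table, and none was past 2-fold. Of 16 guard cell, trichome and vascular markers 1 was more than 2-fold lower and none higher.

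The ratios of the single treatments to DMSO were set beside these values, with the caution that all 3 comparisons share the DMSO libraries. The SA response list had a median log2 ratio of 2.24 in Stress + Pakerine, 2.17 in Stress and -0.32 in Pakerine. Detoxification genes had 1.15, 1.00 and -0.21 in the same order, and carbon starvation genes -0.87, -0.41 and -0.17. Root cell markers had 1.14, -0.59 and 1.34, class III peroxidases 1.16, -0.17 and 0.80, and auxin response genes 0.26, -0.29 and 0.72. In the first 2 of these lists the value of Stress + Pakerine lay near that of Stress, and in root cell markers it lay near that of Pakerine. No interaction was tested.

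The genes whose Stress + Pakerine mean lay furthest above all 3 other means were *PER59*, *ABCG40*, *PAD3*, AT3G41762, *MDAR3* and AT4G11290. *ABCG40*, a transporter of abscisic acid, had a mean of 15.1 CPM in Stress + Pakerine, against 2.28 CPM in DMSO, 2.84 CPM in Stress and 1.88 CPM in Pakerine. *PAD3* had 15.1 CPM against 0.833, 5.00 and 0.702 CPM in the same order, and the peroxidase gene AT4G11290 had 31.8 CPM against 6.52, 13.6 and 13.8 CPM. Of the exon windows of AT3G41762, 51.2% occur elsewhere in the genome, so its level (3.57 to 14.2 CPM) is uncertain.

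Furthest below all 3 other means were *DIN6*, AT5G14470, *SEN1*, *SIS*, AT3G48390 and AT2G15880. *DIN6* had a mean of 46.9 CPM in Stress + Pakerine, against 493 CPM in DMSO, 126 CPM in Stress and 265 CPM in Pakerine, so each single treatment was already below DMSO. *SEN1* had 236 CPM against 624, 525 and 553 CPM and *SIS* 15.0 CPM against 38.3, 33.5 and 41.6 CPM, where the single treatments stayed near DMSO. These 12 genes were picked for this pattern, and their values are a description with no test.

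**Figure D5:**
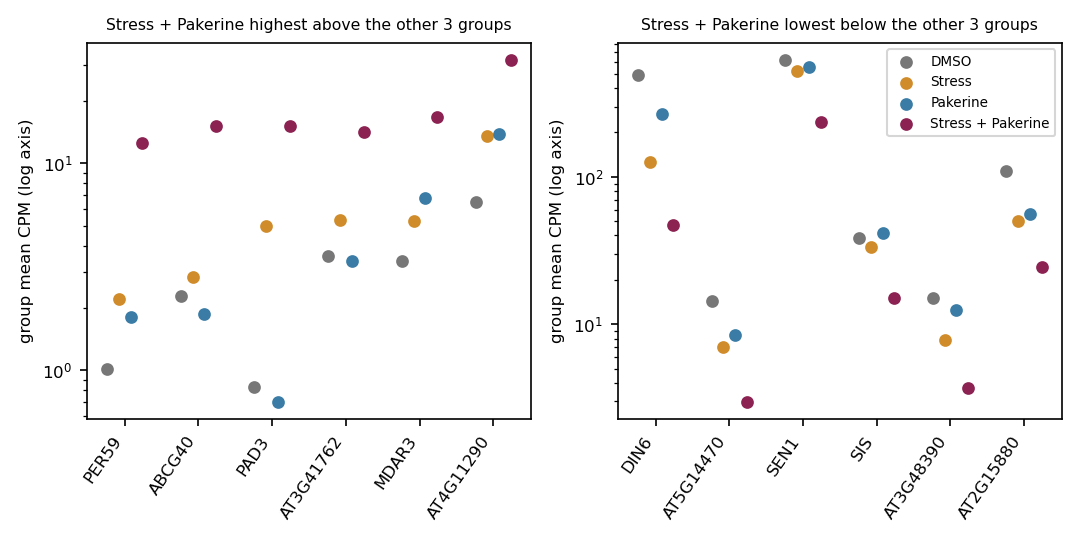
Points are the group mean CPM (log axis) of DMSO, Stress, Pakerine and Stress + Pakerine for the 6 genes whose Stress + Pakerine mean lay furthest above the other 3 means (left) and the 6 furthest below (right). *PER59* stands at 12.5 CPM against at most 2.21 CPM elsewhere, and *DIN6* at 46.9 CPM against at least 126 CPM.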

How the data were processed

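RNA-seq libraries from leaf material of 12 samples in 4 groups of 3 were compared, and the 6 of Stress + Pakerine and DMSO are described. Per the labels and the study's methods, single-end reads of 75 bases were demultiplexed with CASAVA 1.8, trimmed with Trim Galore 0.3.3, aligned to TAIR10 with TopHat2 2.1.0 and counted with featureCounts (Subread 1.4.6). Genes above 0.12 CPM in at least 3 samples were kept by the authors. The strand setting and the handling of reads with several matches are not given in the sources used here. The deposited table holds the CPM of each gene as the authors' mean per group, beside fold changes, p-values and calls of the authors' edgeR comparisons and an interaction, none of which were used. Exons of 39 of the 186 named genes overlap those of another gene, from which reads may have come.

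Library totals were worked back from the means, whole to within 0.01 reads, and then the reads of each library. Below 10 CPM 1 solution existed for every gene. From 10 to 50 CPM a gene was used only where a single solution had all libraries within 50% of the mean, a limit chosen after the data were seen, so a gene with a library further away would be missed there or could be given a wrong solution. Of genes at 6 to 10 CPM, where no limit was needed, 0.796% in DMSO and 0.630% in Stress + Pakerine had such a library. Means of 50 CPM or more were not resolved. CPM were tested as log2(CPM + 0.5) with limma 3.58.1 (R 4.3.3, robust, trended, all 4 groups in 1 model), adjusted by the Benjamini-Hochberg method over 12797 genes. Where the reads of a gene were not recovered in Stress or Pakerine, it was fitted without the libraries of that group, so that its spread rests on fewer than 12 libraries. Counting intervals are 95% intervals of the ratio of pooled reads and, like the floor of 3 reads, cover counting error only. The procedure was also run on simulated means, in which all genes had the same spread between libraries beyond counting error. These cannot show how often the 50% limit gives a wrong solution for genes with a wider spread. p-values measure the spread between 3 pooled samples per group.

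Named genes were the 12 highest and 12 lowest ratios with at least 10 CPM in a group, the 3 largest CPM differences each way, up to 4 members per list with at least 1 CPM, list members past 2-fold against their list's median, 10 genes fixed by name, and the genes nearest to the limit or furthest from the other groups. Members and lists were chosen with earlier results of these data known. The class III peroxidases were taken by the table's gene descriptions and a few by their symbols, whereas the plan was to take all of them by symbol. Upstream windows and exon windows came from the TAIR10.1 annotation of RefSeq, which matched 21731 of the 21882 genes. Alternatives tried were other pseudocounts, filters on low values, scalings, the 6 libraries alone, each library left out and voom weights. Python 3.11.15, numpy 2.4.6, pandas 2.3.3, scipy 1.17.1 and matplotlib 3.10.9 were used.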

Additional observations from a re-analysis of the deposited data

How the results depend on the processing

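Of the 186 named genes put through the alternatives, none that passed changed direction. Centring turned the sign of 2 list medians near 0, from -0.02 to 0.04 for nuclear photosystem and antenna genes and from -0.03 to 0.02 for aliphatic glucosinolates. By the group means, 1999 genes higher and 408 lower became 964 and 183 with a pseudocount of 1 CPM, and counting the bound of each interval nearest to 0 left 242 lower. By limma, 889 higher and 144 lower became 1348 and 252 with a pseudocount of 0.1 CPM. Leaving out each library in turn gave 769 to 1013 higher and 94 to 217 lower, with 90 of the 94 genes without Stress + Pakerine library A and 140 of the 217 without library B shared with the 144. With voom weights on the 6 libraries 249 were lower. With the 8633 tested genes below 10 CPM alone 92 were lower, all of them among the 144. Both were added after the data were seen. Lists with a median log2 ratio of at least 1 numbered 10, or 5 with a pseudocount of 1 CPM, when camalexin and indole glucosinolates (0.99), detoxification (0.99), class III peroxidases (0.79), flavonoids (0.73) and root cell markers (0.61) fell below 1. Of these 186 genes 73 passed, and 61 did so under every alternative in which they were tested. *EIR1*, *IAA17*, *MDAR3*, *PRR9*, *RVE1*, *CYCB2;2*, *CYCB2;3*, *ZAT10*, *SARD4*, *MGD3*, *RHD6* and *CYP86A1* did not. List members named beyond the rule were not put through the alternatives. Among them are *WRKY54*, *WRKY46*, *NIMIN2*, *ICS1*, *RSL4*, *LRX2*, *BHLH38* and *MYB76*, the last 2 of which lay close to the 2-fold limit. The causes were not tested. Over genes at 1 CPM or more in each group the median log2 ratio was -0.05, so that centring raised each ratio of the means by that size. No paired analysis was possible because the recovered libraries carry no replicate number. The planned voom fit on all 12 libraries was not run, since it allows no missing values. Genes at 50 CPM or more have no replicate error here, whatever their depth.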

Other observations

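Some genes with large differences lay below the 10 CPM minimum of the rule for named genes and were picked after their values were seen. AT4G25580, a CAP160 family gene, had 8.62, 8.37 and 9.87 CPM in DMSO and 0.306, 0.653 and 0.237 CPM in Stress + Pakerine (log2 difference -3.42, SE 0.35, limma adjusted p = 1.2e-05). The β-galactosidase gene *BGAL7* fell from 4.00, 3.97 and 6.99 CPM to 0.214, 0.436 and 0.237 CPM (-2.75, SE 0.21, limma adjusted p = 2.1e-07). AT5G28145, described as a copia-like retrotransposon, fell from 4.95, 6.5 and 6.22 CPM to 0.459, 0.996 and 0.778 CPM (-2.38, SE 0.22, limma adjusted p = 7.3e-07), and its means were 1.14 CPM in Stress and 5.52 CPM in Pakerine.

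On the higher side, AT5G37990, a methyltransferase-like gene, rose from 0.524, 0.394 and 0.457 CPM to 8.12, 9.33 and 8.19 CPM (3.24, SE 0.20, limma adjusted p = 2.2e-08). Its means were 1.65 CPM in Stress and 3.18 CPM in Pakerine, both below Stress + Pakerine. AT3G28510, a nucleoside triphosphate hydrolase-like gene, rose from 0.0328, 0.525 and 0.562 CPM to 11.1, 9.33 and 7.07 CPM (3.51, SE 0.25, limma adjusted p = 5.1e-07), with 15.8 CPM in Stress and 0.133 CPM in Pakerine.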
